A study of Mus musculus with 6 samples.

Results

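Chemokines are small secreted or membrane-bound proteins that attract leukocytes by binding G protein-coupled receptors on them, and the family is named by the spacing of its first cysteines (CC, CXC, XC and CX3C). Many ligands share a receptor and many receptors take several ligands. Some chemokines are induced by interferon or by NF-kappaB in tumour and stromal cells, some are made by the lymphocytes themselves, and others are produced steadily by stroma, endothelium or epithelium. Atypical receptors bind chemokines without G protein signalling and remove them from the tissue. The genes described here are the 64 protein-coding entries of the authors' deposited table whose symbols begin with a chemokine or chemokine receptor stem (Ccl, Ccr, Cxcl, Cxcr, Xcl, Xcr, Cx3cl, Cx3cr or Ackr) followed by a digit, out of 39179 gene entries in all. They comprise 41 ligand and 23 receptor entries under 60 different symbols, since Ccl21c, Ccl25 and Ackr4 have more than 1 entry.

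RNA-seq was done on 6 tumour grafts in mice of the FVB strain, 3 labelled WT (MMTV-Neu cells with AXL) and 3 labelled AXL KO (MMTV-Neu cells without AXL). MMTV-Neu denotes the Neu (ErbB2) oncogene under the mouse mammary tumour virus promoter, which drives it in mammary epithelium, and AXL is a cell surface tyrosine kinase. The question put to the data is how chemokine and receptor transcripts compare between grafts grown from cells with and without AXL. The labels give no age, no graft duration and no statement on separate animals, pooling or the number of cell clones, so the variation behind each p-value is that among these libraries and could be technical, and a difference between the grafted lines cannot be told apart from one due to AXL. Host leukocytes, vessels and stroma are part of a graft. The labels do not give the Axl genotype of the host.

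The libraries held 26541009 to 32491807 counts in genes. Axl itself was counted at 48.2 to 74.0 CPM (the count scaled by library size and TMM factor) over all 6 libraries and did not separate the groups (log2 fold change -0.01, SE 0.16, edgeR adjusted p = 0.978), so directions below are between libraries as labelled. Across 14850 tested genes 37.4% passed the test at an adjusted p under 0.05, 19.1% higher and 18.3% lower in AXL KO, and the median log2 fold change was 0.00. Summed markers of mammary epithelium lay at 11637 to 12939 CPM in WT and 11640 to 13851 CPM in AXL KO libraries. Most of that sum was Erbb2, the gene of the driving oncogene, and the other 7 markers summed to 4769 to 5071 CPM in WT and 3453 to 3832 CPM in AXL KO libraries, which do not overlap. Markers of NK and cytotoxic cells lay at 2.50 to 4.82 and 30.6 to 42.1 CPM. Summed T cell markers lay at 10.9 to 14.5 and 28.7 to 31.7 CPM, and 12 of 14 tested T cell and 10 of 10 NK and cytotoxic markers rose. In bulk tissue more cells of a type and more RNA per cell cannot be told apart, and the part of these marker shifts in the results below was not tested.

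**Figure D1:**
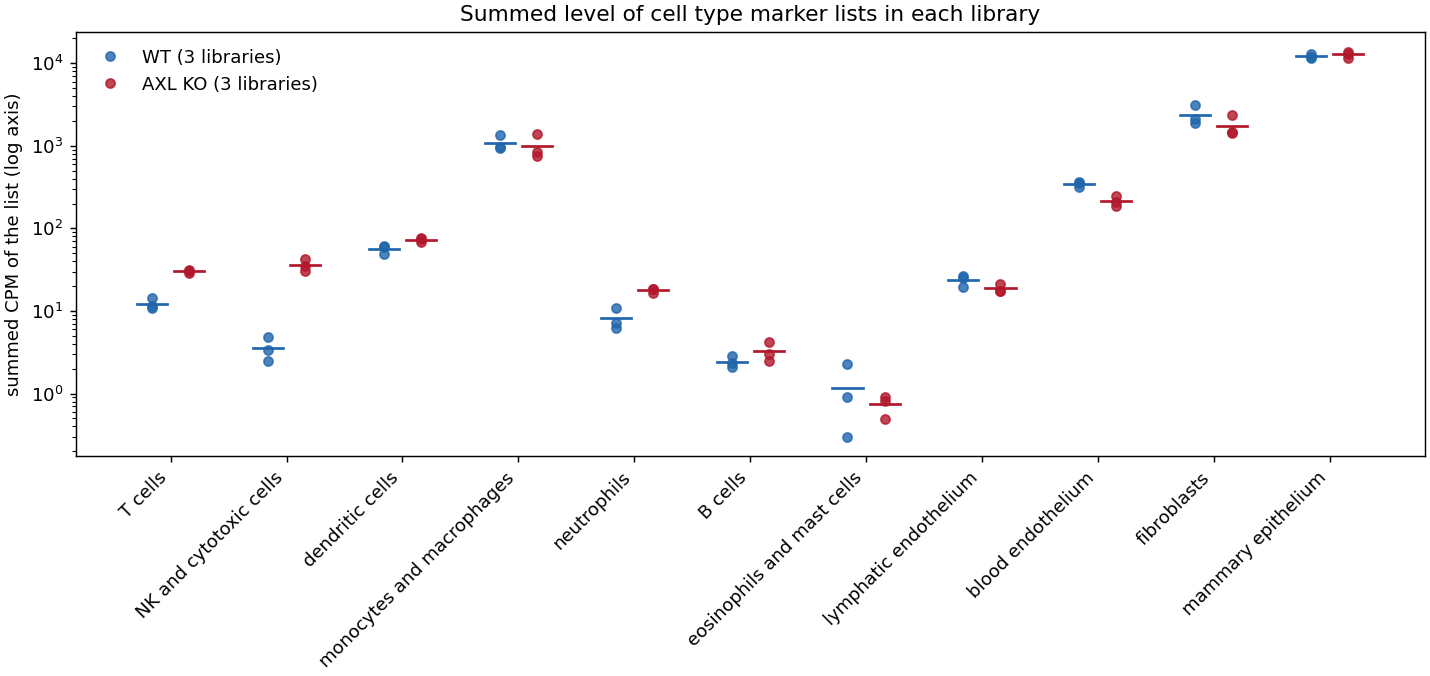
Summed CPM of each fixed list of cell type markers (log axis), with 1 point per library and a bar at the group mean. The NK and cytotoxic list lies at 2.50 to 4.82 CPM in WT and 30.6 to 42.1 CPM in AXL KO libraries, while the groups overlap for monocytes and macrophages, B cells, eosinophils and mast cells, lymphatic endothelium, fibroblasts and mammary epithelium (the last with Erbb2 included).

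Of the 64 entries, 9 had no count in any library and 15 had counts too low to test, at most 14 in a library. The remaining 40 were tested, 26 ligands and 14 receptors. In AXL KO libraries 15 of these 40 rose and 6 fell (edgeR quasi-likelihood test, adjusted p under 0.05 after Benjamini-Hochberg correction over all genes), where 19.1% and 18.3% of all tested genes did. The median log2 fold change of the tested members was 0.41. In each of the 21 called genes the WT and AXL KO libraries did not overlap. Non-overlap occurred for 17 members in the direction of AXL KO and 7 in that of WT, against 26.9% and 25.2% of all tested genes (52.1% in either direction). Of the genes that rose, 4 had cleared the minimum count through the AXL KO libraries alone (Xcl1, Cxcr6, Xcr1 and Ccr9), and of those that fell, Cxcl13 and Cxcr2 had cleared it through the WT libraries alone. Such genes were tested because of the group in which they are high, so these counts are a description. Most of the rising genes were scarce. Among the 17 members whose mean log2 CPM reached 2, 4 rose and 5 fell, Ackr3 being the added decrease (adjusted p = 0.0496 in that fit, 0.0216 to 0.156 over its alternatives).

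**Figure D2:**
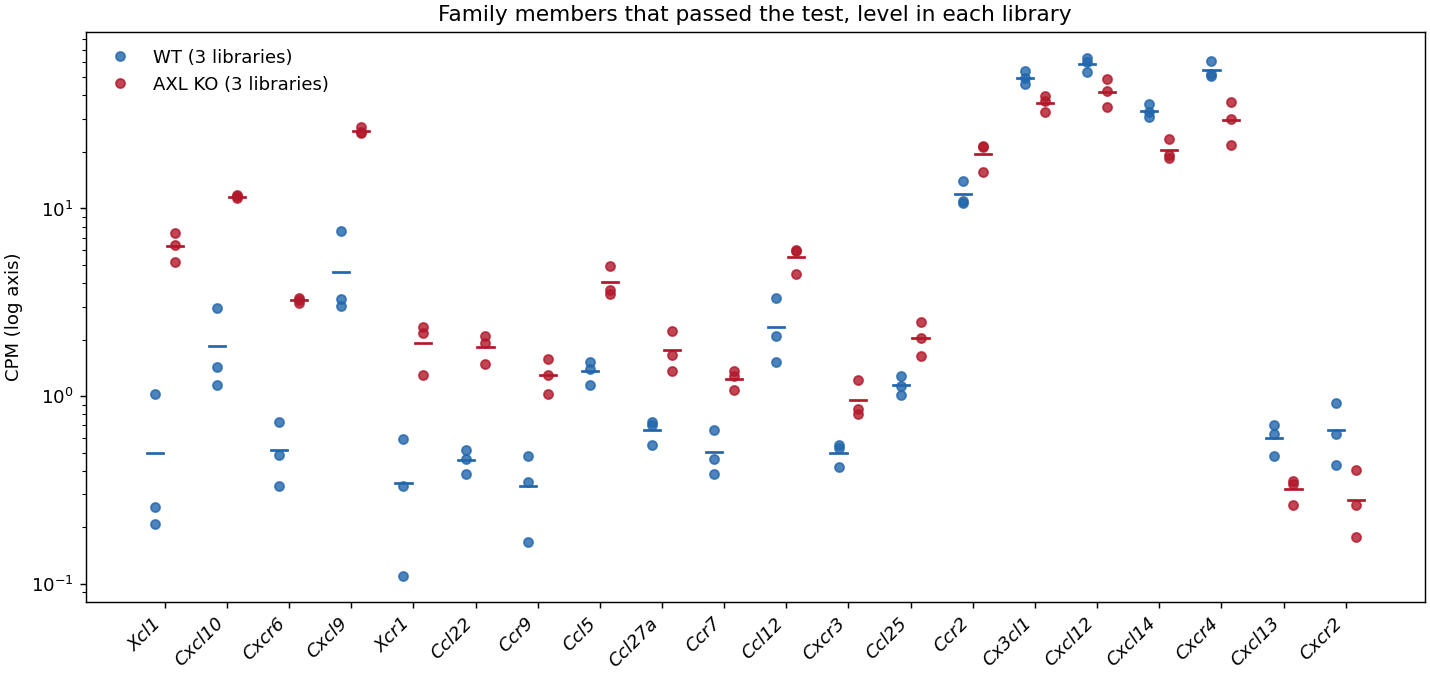
CPM of the members that passed the test and are described here (log axis), with 1 point per library and a bar at the group mean, ordered by log2 fold change. From Xcl1 to Ccr2 every AXL KO library lies above every WT library, and from Cx3cl1 to Cxcr2 every AXL KO library lies below every WT library.

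The ligands of CXCR3, the receptor by which activated T cells and NK cells enter inflamed tissue, had the highest fold changes of the tested chemokines after Xcl1. Both genes lie on GRCm38 chromosome 5, Cxcl9 (ENSMUSG00000029417) at 92321347 to 92328079 and Cxcl10 (ENSMUSG00000034855) at 92346638 to 92348889, 18.6 kb apart, and both are known as interferon-induced genes. The 250 bases before each RefSeq transcript start (GRCm38.p6) are shown because the genes moved together, along with those of Cxcl1, an NF-kappaB-induced chemokine that did not pass the test, and Cxcl14, an epithelial chemokine that fell. Each is given 5′ to 3′ on the gene's strand, and capitals mark matches on either strand to the interferon-stimulated response element core (GAAA, any 2 bases, GAAA), to the gamma-activated site (TTC, any 3 bases, GAA) or to the NF-kappaB consensus.
Cxcl10 (chromosome 5, 92348890 to 92349139, minus strand): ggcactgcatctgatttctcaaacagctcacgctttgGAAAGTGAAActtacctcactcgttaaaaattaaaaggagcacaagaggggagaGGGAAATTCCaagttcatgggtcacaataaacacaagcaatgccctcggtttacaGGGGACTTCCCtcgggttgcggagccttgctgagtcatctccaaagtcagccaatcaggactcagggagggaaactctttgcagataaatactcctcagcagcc
Cxcl9 (chromosome 5, 92328080 to 92328329, minus strand): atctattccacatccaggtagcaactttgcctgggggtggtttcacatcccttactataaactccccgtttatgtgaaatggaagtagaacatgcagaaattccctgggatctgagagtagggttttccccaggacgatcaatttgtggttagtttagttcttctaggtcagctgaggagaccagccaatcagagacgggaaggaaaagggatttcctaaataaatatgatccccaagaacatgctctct
Cxcl1 (chromosome 5, 90890995 to 90891244, plus strand): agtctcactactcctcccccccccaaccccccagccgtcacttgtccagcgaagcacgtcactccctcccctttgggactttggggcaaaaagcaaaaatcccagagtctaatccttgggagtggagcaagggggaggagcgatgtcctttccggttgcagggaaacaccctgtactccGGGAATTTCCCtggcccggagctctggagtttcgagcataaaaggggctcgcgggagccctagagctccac
Cxcl14 (chromosome 13, 56296552 to 56296801, minus strand): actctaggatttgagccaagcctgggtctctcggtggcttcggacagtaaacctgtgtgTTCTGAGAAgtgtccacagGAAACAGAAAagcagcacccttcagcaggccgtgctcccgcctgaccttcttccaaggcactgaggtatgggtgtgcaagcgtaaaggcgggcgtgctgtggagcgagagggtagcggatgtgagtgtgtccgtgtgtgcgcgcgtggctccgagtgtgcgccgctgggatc

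In the Cxcl10 window the response element core lies at -213 to -204 from the start, with NF-kappaB matches at -159 to -150 and at 2 overlapping positions from -104 to -94. The Cxcl9 window holds none of the 3 patterns. Cxcl1 carries 2 overlapping NF-kappaB matches from -71 to -61, and Cxcl14 carries the response element core at -172 to -163 and the gamma-activated site at -191 to -183. Of 32851 RefSeq windows of this length, 2.98% held the response element core, 7.02% the gamma-activated site and 7.25% the NF-kappaB consensus. Windows matched 45 of the 60 member symbols. Among 12 members that rose and had a window, Cxcl10 alone held the response element core or the NF-kappaB consensus and none held the gamma-activated site. Of 6 that fell, Cxcl14 alone held any match. The NF-kappaB consensus was found in 5 of 12 tested members that did not pass (Ackr2, Ccl9, Ccr1, Ccr3 and Cxcl1). A match is a description of letters and not a measured binding site.

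Cxcl10 was counted at 1.14, 2.96 and 1.43 CPM in WT replicates 1, 2 and 3 and at 11.3, 11.8 and 11.6 CPM in the AXL KO libraries. The mean rose 6.23-fold, 1.84 ± 0.976 CPM in WT against 11.6 ± 0.224 CPM in AXL KO (± SD with n = 3 libraries, as throughout; log2 fold change 2.64 ± 0.29, SE, edgeR adjusted p = 0.00026). Cxcl9 had 3.02, 7.54 and 3.28 CPM in WT and 27.1, 25.1 and 25.5 CPM in AXL KO libraries, a rise of 5.58-fold (log2 fold change 2.48 ± 0.30, edgeR adjusted p = 0.000401). In both genes WT replicate 2 stood above the other WT libraries and the AXL KO libraries lay close together. Cxcl10 lies inside Art3, which is on the opposite strand and had a log2 fold change of 0.15 (adjusted p = 0.616). The third ligand of this receptor, Cxcl11, is classed as a polymorphic pseudogene in the deposited table and so is outside the selection. Its counts were 8, 16 and 7 in WT and 60, 49 and 54 in AXL KO libraries (log2 fold change 2.31 ± 0.32, edgeR adjusted p = 0.000798). Cxcr3 itself, their receptor, had 15, 16 and 12 counts in WT and 24, 26 and 37 in AXL KO libraries. It rose 1.90-fold (log2 fold change 0.93 ± 0.28, edgeR adjusted p = 0.0301). That call depended on single libraries, since the adjusted p was 0.0601, 0.104, 0.0567 and 0.12 without WT replicate 2, WT replicate 3, AXL KO replicate 1 and AXL KO replicate 3 (0.0294 to 0.12 over all alternatives).

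Xcl1, lymphotactin, which NK cells and activated CD8 T cells secrete, had the highest fold change of the tested members, and its receptor Xcr1, a marker of cross-presenting dendritic cells, rose too. Xcl1 (chromosome 1, 164931644 to 164935527) had 7, 31 and 6 counts in WT and 181, 168 and 224 in AXL KO libraries. Its level rose 12.3-fold, from 0.499 ± 0.461 to 6.32 ± 1.09 CPM (log2 fold change 3.63 ± 0.44, edgeR adjusted p = 0.000429). WT replicate 2, high here as in Cxcl9 and Cxcl10, sets much of the WT mean, and without it the log2 fold change was 4.74 (edgeR adjusted p = 6.53e-05, 6.22e-16 to 0.00324 over all alternatives). Xcr1 had 3, 10 and 17 counts in WT and 61, 42 and 71 in AXL KO libraries, 5.48-fold higher (log2 fold change 2.45 ± 0.45, edgeR adjusted p = 0.00316), and 3.07 on the log2 scale without WT replicate 3. Dendritic cell markers were higher in the same libraries for 6 of 10 genes. Clec9a, another marker of cross-presenting cells, had 5, 5 and 3 counts in WT and 21, 15 and 18 in AXL KO libraries. Fscn1, an actin-bundling gene of mature dendritic cells, was lower. Batf3, Zbtb46 and Cd209a of the same list did not pass, at log2 fold changes of 0.21, 0.08 and -0.76 (edgeR adjusted p = 0.702, 0.657 and 0.118).

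Cxcr6, a receptor of activated T cells, NKT cells and innate lymphoid cells, rose 6.19-fold without its ligand. It had 9, 22 and 14 counts in WT and 92, 108 and 96 in AXL KO libraries (0.517 ± 0.201 to 3.25 ± 0.092 CPM, log2 fold change 2.63 ± 0.26, edgeR adjusted p = 0.000161). Cxcl16, the transmembrane chemokine that binds it, had 21.3, 20.7 and 18.7 CPM in WT and 23.9, 23.7 and 22.0 CPM in AXL KO libraries. The Cxcl16 libraries did not overlap, but its log2 fold change of 0.20 (95% interval -0.01 to 0.41) did not pass the test (edgeR adjusted p = 0.118). Its exons overlap 552 bases of Zmynd15 on the opposite strand, a scarcer gene that was higher in AXL KO (adjusted p = 0.0174). Cxcr6 lies inside Fyco1, a gene on the opposite strand that was itself higher in AXL KO (log2 fold change 0.92, adjusted p = 0.00293). Their exons do not overlap in the annotation, and whether intronic reads of Fyco1 entered the Cxcr6 count was not tested.

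**Figure D3:**
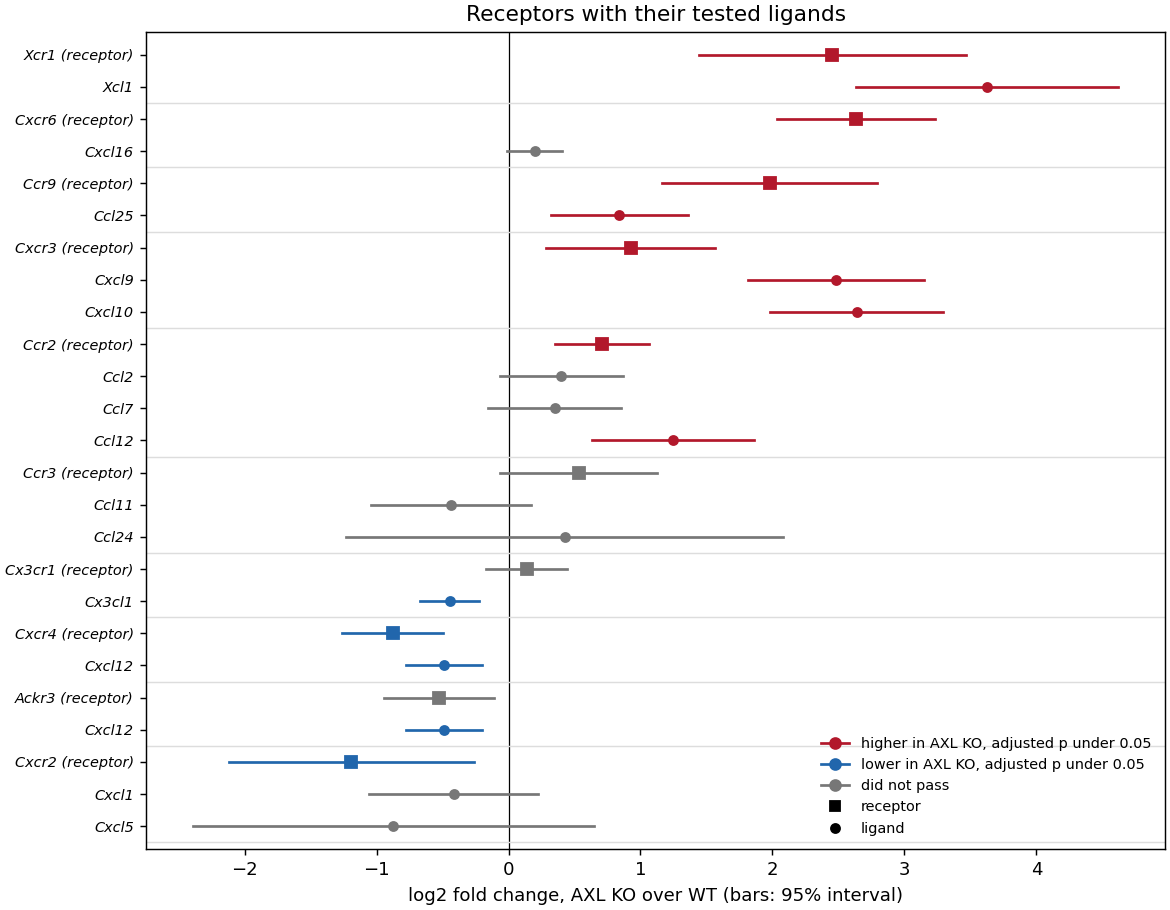
Log2 fold change (AXL KO over WT) with its 95% interval for 10 receptors (squares) and their tested ligands (circles), grouped by receptor. Xcr1, Ccr9, Cxcr3 and Ccr2 stand to the right of 0 with at least 1 ligand that also rose, Cxcr6 stands to the right with Cxcl16 near 0, and Cxcr4 and Cxcl12 stand to the left.

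Among the inflammatory CC ligands Ccl3, Ccl4 and Ccl5, which attract T cells and macrophages, Ccl5 alone passed the test. Ccl5 (chromosome 11, 83525778 to 83530518), a product of activated T and NK cells and an interferon-induced gene in other cells, had 38, 46 and 33 counts in WT and 140, 113 and 112 in AXL KO libraries. It rose 2.96-fold (log2 fold change 1.57 ± 0.21, edgeR adjusted p = 0.000789). Ccl3 had 23, 17 and 18 counts in WT and 15, 43 and 28 in AXL KO libraries (log2 fold change 0.46, 95% interval -0.35 to 1.27), and Ccl4 had an interval of -0.14 to 1.23, so a 2-fold rise (1 on the log2 scale) is within both intervals.

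Of the 6 ligands grouped here under the monocyte receptors CCR2 and CCR1, 1 passed. Ccl12 (monocyte chemoattractant protein 5) had 3.35, 1.53 and 2.09 CPM in WT and 4.50, 5.99 and 5.95 CPM in AXL KO libraries and rose 2.37-fold (log2 fold change 1.24 ± 0.27, edgeR adjusted p = 0.00736). Its tested neighbours in the chromosome 11 cluster were not called, and Ccl1, next after Ccl8 there, had too few counts to test (values below). Ccl5 and Ccr7, which rose, lie on that chromosome too. Of its 1231 tested genes 33.1% were higher in AXL KO, beside 19.1% of all tested genes, and their median log2 fold change was 0.18. Ccl2, the main CCR2 ligand, had a log2 fold change of 0.40 (95% interval -0.07 to 0.87) and Ccl7 0.35 (-0.15 to 0.85). Ccl8, which had the highest level per exon length of the whole family (95.9 CPM per kb of exon), had 86.8, 43.0 and 38.4 CPM in WT and 45.7, 45.3 and 34.8 CPM in AXL KO libraries. Those groups overlapped, WT replicate 1 being far above the rest. The log2 fold change of Ccl8 was -0.42 (-1.04 to 0.21), and 0.04 without WT replicate 1. Ccl6 had 53.2, 33.0 and 24.4 CPM in WT and 58.9, 40.4 and 37.4 CPM in AXL KO libraries, and Ccl9 had 850, 523 and 459 counts and then 840, 781 and 555. Both overlapped between groups, with edgeR adjusted p-values of 0.398 and 0.663. WT replicate 1 was the highest WT library in 22 of the 40 tested members, and AXL KO replicate 2 the highest AXL KO library in 21. Without WT replicate 1, Ccl2 and Ccl6 passed, at log2 fold changes of 0.64 and 0.66 (adjusted p = 0.0254 and 0.0376, 0.0254 to 0.368 and 0.0376 to 0.85 over their alternatives).

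The receptor Ccr2, which inflammatory monocytes carry, rose 1.63-fold, with 380, 323 and 316 counts in WT and 606, 688 and 476 in AXL KO libraries (log2 fold change 0.71 ± 0.16, edgeR adjusted p = 0.00791). Ccr1 did not pass, with a log2 fold change of 0.03 and an interval of -0.32 to 0.37 that leaves out a change of 2-fold in either direction. Cx3cr1, the fractalkine receptor of monocytes and macrophages, had 36.6, 38.3 and 39.3 CPM in WT and 34.3, 51.5 and 39.7 CPM in AXL KO libraries, with an interval of -0.17 to 0.44. Summed monocyte and macrophage markers overlapped between the groups, at 943 to 1370 CPM in WT and 746 to 1397 CPM in AXL KO libraries, and 2 of 16 rose (Fcgr1 and Ly6c2) and 1 fell (Cd14). Cx3cl1, the membrane-bound ligand of Cx3cr1, fell from 45.9, 49.3 and 54.3 CPM to 39.6, 37.6 and 32.7 CPM (log2 fold change -0.45 ± 0.10, edgeR adjusted p = 0.00802). It is a product of endothelium and epithelium. Blood endothelium markers fell in 8 of 9 genes, from 321 to 360 CPM summed in WT libraries to 187 to 249 CPM in AXL KO libraries.

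Chemokines of dendritic cells and of regulatory and type 2 T cells were scarce, and part of them rose. Ccl22, a dendritic cell and macrophage product that binds CCR4, had 14, 14 and 11 counts in WT and 54, 48 and 64 in AXL KO libraries and rose 4-fold (log2 fold change 2.0 ± 0.26, edgeR adjusted p = 0.000577). The other CCR4 ligand, Ccl17, lies close to it on chromosome 8 and had 12, 10 and 11 and then 21, 14 and 23 counts (log2 fold change 0.73, 95% interval -0.01 to 1.47, edgeR adjusted p = 0.111). The receptor Ccr4 had 8 counts over the WT and 11 over the AXL KO libraries and was not tested. Cx3cl1, which fell, lies between Ccl22 and Ccl17, at 94772009 to 94782427 on chromosome 8.

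Ccl1 and its receptor Ccr8, which type 2 and regulatory T cells carry, were both below the minimum count. Ccl1 had 0, 2 and 0 counts in WT and 10, 9 and 11 in AXL KO libraries, a ratio of 14.2 with a 95% counting interval of 3.59 to 122. Ccr8 had 0, 1 and 1 counts in WT and 9, 7 and 8 in AXL KO libraries, a ratio of 11.3 with an interval of 2.81 to 98.9. Their libraries did not overlap, and in the edgeR fit without a minimum both passed (adjusted p = 0.0033 and 0.00519). Of the eosinophil ligands, Ccl11 had a log2 fold change of -0.43 (-1.04 to 0.17), and Ccl24 had 16, 10 and 19 counts in WT and 48, 9 and 6 in AXL KO libraries, where AXL KO replicate 1 alone was high (log2 fold change 0.43, 95% interval -1.23 to 2.08). Their receptor Ccr3 had an interval of -0.06 to 1.13. The eosinophil genes Epx, Prg2 and Ear1 had no count in any library.

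Ccr7, by which dendritic cells and naive T cells reach lymph nodes, had 18, 14 and 11 counts in WT and 36, 44 and 33 in AXL KO libraries and rose 2.46-fold (log2 fold change 1.30 ± 0.27, edgeR adjusted p = 0.00626). Its ligand Ccl19 had 3 counts in all, and the 5 entries of the Ccl21 group had none. Several near-identical copies of Ccl21 and Ccl27 exist in the mouse genome and reads that align to more than 1 place were not counted, so the zeros do not measure their absence. Ccr9, the gut-homing receptor, had 13, 5 and 10 counts in WT and 29, 42 and 48 in AXL KO libraries, 3.94-fold higher (log2 fold change 1.98 ± 0.36, edgeR adjusted p = 0.00317). Its span partly overlaps the more abundant Lztfl1 and Gm10052 on the opposite strand (log2 fold changes of 0.10 and -0.57). The sole ligand of Ccr9, Ccl25, had 35, 34 and 29 and then 70, 53 and 62 counts and rose 1.79-fold (log2 fold change 0.84 ± 0.23, edgeR adjusted p = 0.0195). Exons of Ccl25 overlap those of Elavl1 on the other strand, a far more abundant gene whose log2 fold change was -0.17. The Ccl25 call ended without WT replicate 3, AXL KO replicate 1 or AXL KO replicate 3 (adjusted p = 0.074, 0.0808 and 0.0542, 0.0116 to 0.0808 over all alternatives). Ccl27a, a keratinocyte chemokine, had 15, 21 and 21 counts in WT and 47, 44 and 68 in AXL KO libraries, 2.63-fold higher (edgeR adjusted p = 0.00405). Its exons share 8 bases with the more abundant Il11ra1 on the opposite strand, which had a log2 fold change of 0.30. Ccl27a lies on chromosome 4, where 41.5% of tested genes were higher in AXL KO and the median gene stood at 0.28 on the log2 scale. Its receptor Ccr10 had 3 counts in all. Ccl28, which shares that receptor, had an interval of -0.47 to 0.60.

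Receptor genes clustered on chromosome 9 are given here in order of position. Ccr9 (123678439 to 123784330), Cxcr6 (123806475 to 123811760) and Xcr1 (123852315 to 123862029) follow each other and had log2 fold changes of 1.98, 2.63 and 2.45. Next along the chromosome, Ccr1 (123962124 to 123968692) and Ccr3 did not pass, at 0.03 and 0.53. Ccr2, further along, rose by 0.71. The 95% interval of Ccr1 lay below those of Ccr9, Cxcr6 and Xcr1. Those receptors had cleared the minimum count through the AXL KO libraries alone and Ccr1 through both groups, so the contrast is a description. Ccr1l1, between Ccr1 and Ccr3, had too few counts to test. No model tested the differences between genes. Of 816 tested genes on chromosome 9, 36.0% were higher in AXL KO, and their overall median log2 fold change was 0.20. Of 11 other tested genes within 500 kb of the cluster, Fyco1 and 2010315B03Rik rose and Gm10052 fell.

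**Figure D4:**
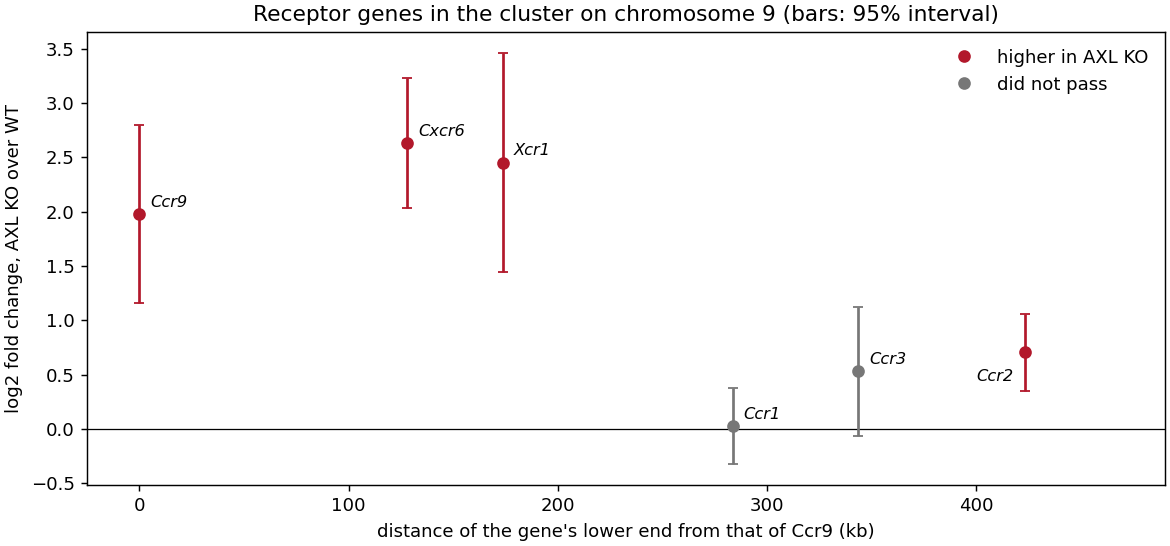
Log2 fold change (AXL KO over WT) of receptor genes of the chromosome 9 cluster against their distance in kb from Ccr9, with 95% intervals. Ccr9, Cxcr6 and Xcr1 lie between 1.98 and 2.63, Ccr1 lies at 0.03, and Ccr2 lies at 0.71.

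Of the 6 members that fell, 4 were among the abundant members: the ligands Cxcl12, Cxcl14 and Cx3cl1 and the receptor Cxcr4. Cxcl12, the stromal chemokine that holds stem cells and leukocytes in tissues, had 63.2, 60.4 and 53.1 CPM in WT and 34.7, 48.9 and 42.2 CPM in AXL KO libraries. It was 1.404-fold lower (log2 fold change -0.49 ± 0.13, edgeR adjusted p = 0.0155). Cxcr4, its signalling receptor and the receptor with the highest level per exon length (23.3 CPM per kb of exon), fell from 52.3, 60.8 and 50.6 CPM to 21.9, 37.0 and 30.1 CPM, 1.84-fold lower (log2 fold change -0.88 ± 0.17, edgeR adjusted p = 0.00408). In both genes AXL KO replicate 2 lay nearest to the WT libraries. Ackr3, the scavenging receptor for Cxcl12, had 8.83, 9.44 and 6.52 CPM in WT and 5.14, 6.86 and 5.19 CPM in AXL KO libraries. Its groups overlapped and it stood at the threshold (log2 fold change -0.53, 95% interval -0.94 to -0.11, edgeR adjusted p = 0.0508). Ackr3 passed in 8 of 14 alternatives. Summed markers of fibroblasts, a main source of Cxcl12, overlapped between the groups, at 1873 to 3132 CPM summed in WT and 1421 to 2362 CPM in AXL KO libraries, with 0 of 9 called by edgeR. All 9 had a negative log2 fold change (median -0.43, beside -0.49 for Cxcl12), and their part in the Cxcl12 result was not tested.

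Cxcl14, an epithelial chemokine, fell from 36.0, 32.7 and 30.7 CPM to 19.3, 23.5 and 18.6 CPM, 1.62-fold lower (log2 fold change -0.69 ± 0.11, edgeR adjusted p = 0.00175). Epithelial markers fell in 5 of 8 genes and rose in 1. Ackr2, which scavenges inflammatory CC chemokines, had 1.44, 1.69 and 1.60 CPM in WT and 0.708, 1.42 and 0.986 CPM in AXL KO libraries. Those libraries did not overlap, but the log2 fold change of -0.59 (-1.21 to 0.02) did not pass (edgeR adjusted p = 0.115). Without AXL KO replicate 2 it was -0.89, with an adjusted p of 0.0292 (0.0292 to 0.321 over all alternatives).

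Neutrophil and B cell chemokine genes were low, and their calls did not last. Cxcr2, the neutrophil receptor for Cxcl1, Cxcl2 and Cxcl5, had 25, 13 and 18 counts in WT and 5, 13 and 8 in AXL KO libraries, 2.29-fold lower in the fit (log2 fold change -1.19 ± 0.41, edgeR adjusted p = 0.0475). WT replicate 2 and AXL KO replicate 2 both had 13 counts and were separated by depth alone. The call ended without WT replicate 1 or 3 and without AXL KO replicate 1 or 3 (adjusted p of 0.143, 0.0997, 0.147 and 0.125, 0.0312 to 0.147 over all alternatives). Cxcl1 had 4.75, 2.89 and 5.27 CPM in WT and 2.23, 4.23 and 3.15 CPM in AXL KO libraries (log2 fold change -0.42, 95% interval -1.06 to 0.23). Cxcl5 had 44, 16 and 18 counts in WT and 8, 34 and 4 in AXL KO libraries, the 34 standing in AXL KO replicate 2. Without that library it passed, at -2.14 (adjusted p = 0.0299, 0.0299 to 0.837 over all alternatives). Cxcl5 had cleared the minimum count through the WT libraries alone, and the library left out held its highest AXL KO count. That pass is therefore a description only. Cxcl2 had 34 counts over the WT and 16 over the AXL KO libraries, a ratio of 0.444 with a counting interval of 0.229 to 0.827, and was not tested. Of the neutrophil markers, Mpo, Elane and Camp had no count, Ly6g had 1, and S100a8 had 43, 9 and 25 counts in WT and 7, 29 and 9 in AXL KO libraries. Their summed level, 6.21 to 10.97 CPM in WT and 16.5 to 18.6 CPM in AXL KO libraries, followed Ltf, the lactoferrin gene, which secretory epithelium also expresses. Cxcl13, the B cell follicle chemokine, had 13, 21 and 18 and then 10, 11 and 8 counts (log2 fold change -0.91 ± 0.31, edgeR adjusted p = 0.0439). It lost its call without any 1 of the libraries other than WT replicate 1 (adjusted p of 0.0744 to 0.144). With no filter on low counts its adjusted p was 0.0778. Its receptor Cxcr5 had 1 count in all, and none of the B cell markers was called by edgeR. The other untested members gave no basis for a comparison. Cxcl3, Cxcl15, Cxcl17, Ccl20, Cxcr1, Ccr1l1, Ccr6 and the counted Ackr4 entry had at most 8 counts in any library, and Ccl26, Ccl27b and the second Ccl25 and Ackr4 entries had none.

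**Figure D5:**
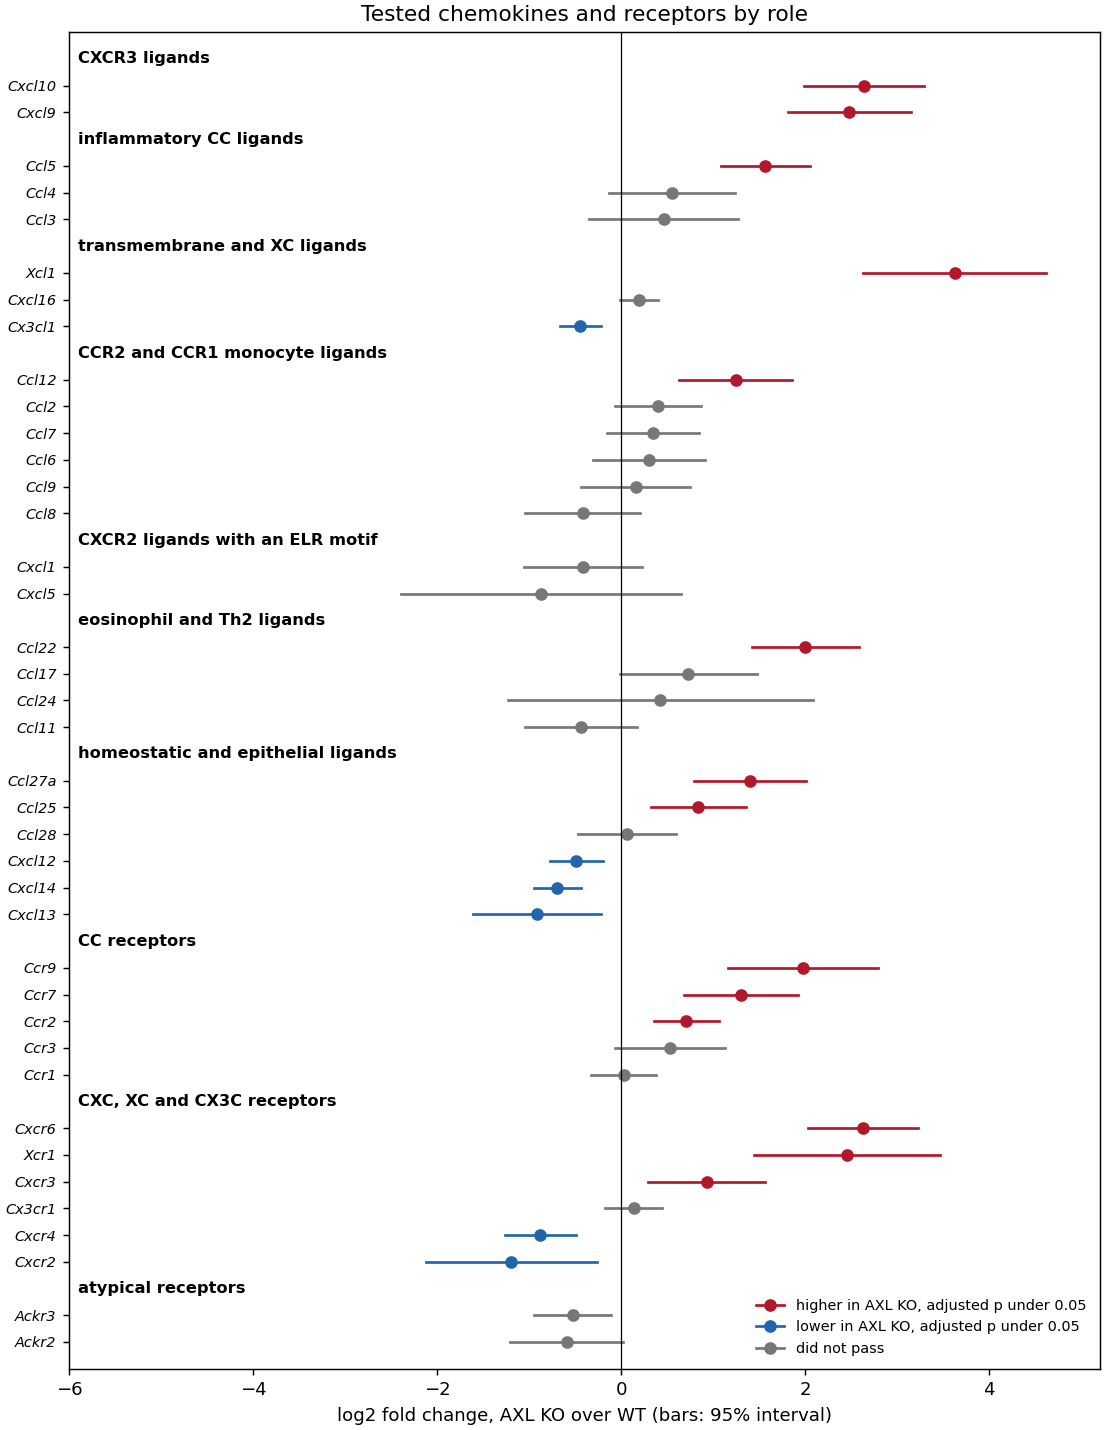
Log2 fold change (AXL KO over WT) with its 95% interval for the tested members described here, grouped by role. Both CXCR3 ligands lie above 2, and the 6 ligands grouped under CCR2 and CCR1 lie between -0.42 and 1.24. The atypical receptors Ackr2 and Ackr3 lie below 0 without passing the test.

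In a list of 85 other genes of the pathway, 81 were tested, of which 24 rose and 11 fell in AXL KO libraries (29.6% and 13.6%, beside 19.1% and 18.3% of all tested genes); their median log2 fold change was -0.09. The number that fell was 7 without WT replicate 2 or WT replicate 3, 5 without AXL KO replicate 1, 4 without AXL KO replicate 3 and 4 at an adjusted p under 0.01. Of the inducing cytokines and transcription factors 6 of 17 were higher and 4 lower. Those that rose included the interferon-activated factors Irf7 (14.3-fold), Stat2 (4.18-fold), Irf1 (2.41-fold) and Irf9 (2.33-fold), and Ltb, the lymphotoxin beta gene (4.51-fold). The 4 that fell were NF-kappaB subunits and their inhibitor, namely Nfkbia (1.36-fold), Relb (1.39-fold), Nfkb2 (1.23-fold) and Nfkb1 (1.20-fold), with edgeR adjusted p-values of 0.00241, 0.0223, 0.0317 and 0.0326, so that Nfkbia alone of these passed at 0.01. Tnf and Il1b, cytokines that activate NF-kappaB, did not pass (log2 fold changes of 0.00 and -0.16). Ifng, the main inducer of Cxcl9, had 0, 2 and 4 counts in WT and 5, 7 and 10 in AXL KO libraries, too few to test.

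Of 37 receptor signalling genes 12 rose and 4 fell (32.4% and 10.8%, beside 19.1% and 18.3% of all tested genes). Elmo1 (1.63-fold) and Dock2 (1.56-fold), which together activate Rac downstream of chemokine receptors, rose, while Arrb1, the beta-arrestin that desensitizes receptors, was 1.98-fold lower. Of 19 genes for processing and presentation 5 rose and 3 fell (26.3% and 15.8%), which is nearer to the shares of all tested genes. Dpp4, the peptidase that trims and inactivates CXCR3 ligands and others, rose from 10.1 to 23.6 CPM (2.35-fold) and is also among the dendritic cell markers, and the heparan sulphate carriers split, with Sdc1 1.99-fold lower and Sdc3 1.83-fold higher. Sdc2 and Sdc4 did not pass (log2 fold changes of -0.27 and 0.01). Ext1, which builds heparan sulphate, was 1.47-fold lower. Ndst1 of the same list was higher (log2 fold change 0.49, edgeR adjusted p = 0.0054), and Ext2 and Hs2st1 did not pass. Of 8 relatives outside the symbol rule, only Ccrl2, a chemerin-binding receptor, passed, 1.33-fold higher. The platelet chemokine genes Pf4 and Ppbp had log2 fold changes of -0.61 ± 0.34 and -1.11 ± 0.43 (edgeR adjusted p = 0.191 and 0.0684). The atypical receptor gene Ackr1, named Darc in the deposited table, was among the 8 and did not pass (log2 fold change -0.13, edgeR adjusted p = 0.819).

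A selection of 15 pairs of a tested ligand with a tested receptor was compared, and the pairs share genes. Left out were, among others, Ccr1, Ackr2 and the ligands Ccl3, Ccl4, Ccl6, Ccl8 and Ccl9, none of them called. The ligand Ccl5, which rose, was left out too, so the pair counts hold for this selection only. Both genes rose in 5 pairs (Cxcl9 and Cxcl10 with Cxcr3, Xcl1 with Xcr1, Ccl12 with Ccr2, Ccl25 with Ccr9) and both fell in 1 (Cxcl12 with Cxcr4). The receptor alone passed in 5 pairs and the ligand alone in 2, neither passed in 2, and no pair held calls in opposite directions. Xcl1, Xcr1, Ccr9 and Cxcr6 had cleared the minimum count through the AXL KO libraries alone, and Cxcl5 and Cxcr2 through the WT libraries alone. The pair counts are therefore a description. Pairs in which both rose numbered 2 without WT replicate 3, AXL KO replicate 1 or AXL KO replicate 3 and 3 without WT replicate 2, since the calls of Cxcr3 or Ccl25 ended there.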

How the data were processed

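The authors deposited 1 file of raw counts per gene for each of 6 libraries and a table of their own comparison. Per the submitters' processing notes, CASAVA 1.8, TopHat2 2.0.10, HTSeq 0.5.3 and DESeq2 1.4.5 were used with GRCm38; the sources used here do not give their settings, strand included, so antisense reads over a gene cannot be told apart from its own. The HTSeq rows for no feature (4.41% to 6.88%), ambiguous (0.717% to 1.09%) and non-unique alignments (25.7% to 29.0%) stayed out of library sizes. Per the file headers, the deposited table also holds a scaled count signal per library, log2 fold changes of WT over AXL KO and p-values; its symbols and gene classes chose the members. Of the 40 tested members, 19 have an adjusted p under 0.05 in the authors' deposited table, 18 of them also called here, and all 40 have the same sign of the log2 fold change as here, after that was turned to AXL KO over WT.

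Genes were kept with filterByExpr (minimum count 10, total 15), which left 14850 of 21716 with any count, and tested by quasi-likelihood in edgeR 4.0.16 (R 4.3.3, TMM, group only, 4 residual degrees of freedom, Benjamini-Hochberg over all genes, threshold 0.05). An interval is 95%, and the SE is the log2 fold change over the square root of F. Levels per kb use the exon union of GENCODE M21 (GRCm38), which also gave positions. Counting intervals of low genes are exact binomial (Clopper-Pearson) and cover counting error only. The chi-square per gene was 11.7 to 31.3 within groups, so no 2 libraries were merged. The code was tested on simulated counts. The alternatives tried were the DESeq2 1.42.0 test, limma-voom (limma 3.58.1), scaling by upper quartiles or by DESeq2 size factors, no filter, a mean log2 CPM of at least 2, a replicate block, each library left out and an adjusted p under 0.01. Some genes are counted in the totals but not reported here by name. By the rule for named genes, the other members are accounted for, with values per library for the 12 largest increases, all decreases, the 10 highest members and receptors of these ligands, and up to 4 genes per pathway list by smallest p. Members, lists, pairs and motifs were chosen with earlier results of these data known. Other genes named for context or position were chosen after their values were seen.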

Additional observations from a re-analysis of the deposited data

How the results depend on the processing

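Of 21 called members, 16 kept their direction and call in all alternatives that tested them, and none of the 21 reversed. The others were Cxcl12, lost at an adjusted p under 0.01, and Ccl25, Cxcl13, Cxcr2 and Cxcr3. Over the left-out libraries the members that rose numbered 13 to 18 and those that fell 4 to 8, ligands 7 to 11 and 3 to 5, receptors 6 to 7 and 1 to 4, and pathway genes 18 to 22 and 4 to 16. At a mean log2 CPM of at least 2, 4 members rose (2 ligands and 2 receptors), because fewer were tested. At an adjusted p under 0.01, 3 members fell (2 ligands and 1 receptor) and 4 pathway genes fell. With DESeq2, Cxcr2, Cxcr3 and Cxcl13 did not pass, and with no filter 17 members rose and 6 fell, Cxcl13 no longer among them. Over the left-out libraries the log2 fold changes of 6 members that were not called crossed 0: Ccl8 ranged from -0.63 to 0.041 (without WT replicate 1), Ccl9 from -0.021 (without AXL KO replicate 1; it was -0.016 when WT replicate 3 was left out) to 0.52, Ccl24 from -1.12 (without AXL KO replicate 1) to 0.88, Ccl28 from -0.15 (without WT replicate 3) to 0.26, Ccr1 from -0.072 (without WT replicate 3; it was -0.071 when AXL KO replicate 2 was left out) to 0.15, and Cx3cr1 from -0.040 (without AXL KO replicate 2) to 0.26. Ccl24 was also reversed with limma-voom, at -0.17. The cause was not tested. Replicate numbers did not pair the samples (correlations of -0.06, -0.13 and 0.09 for numbers 1, 2 and 3), and with the replicate block 15 members rose, 5 fell and 7 pathway genes fell, with Cxcl13, Cxcr2 and Cxcr3 not called. Low counts limit the scarce members, with 24 of 64 entries not testable.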
